A study of Homo sapiens with 12 samples.

Results

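The epidermal differentiation complex at 1q21 is a run of gene families on chromosome 1 that build the outer layer of skin. Its H3K9me1 regions were taken from the ChIP-seq (chromatin immunoprecipitation with sequencing) lists of 4 libraries of HCT116, an established human colorectal carcinoma line. Members were all listed regions with a midpoint between 151.0 and 154.5 Mb of chromosome 1 (hg19), which gave 4564 of the 2264195 regions in the 4 lists. The restricted libraries, A and B, came from cells washed and kept for 24 hr in medium lacking methionine, with serum. The control libraries, A and B, came from cells at 0 hr in complete medium with serum. All cells were at passage 19. Complete medium was not sampled at 24 hr, and the effects of restriction and of time cannot be told apart. The labels do not state whether the letters are separate cultures, and the p-values then cover only a spread that may be technical. The condition of each H3K9me1 library was taken from its title.

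The locus was divided by position into a left flank (151.0 to 151.9 Mb), the stretch of the LCE, FLG and SPRR genes (151.9 to 153.3 Mb), the S100A stretch (153.3 to 153.65 Mb) and a right flank (153.65 to 154.5 Mb). Restricted A listed 724 regions there, restricted B 1220, control A 1219 and control B 1401. No annotation of hg19 was used, so the stretch names come from their positions and no region is assigned to a gene. The label could not be checked by expression, which was not measured.

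H3K9me1 is the first methylation step of lysine 9 of histone H3. It is laid down by histone methyltransferases that take their methyl group from S-adenosylmethionine, which cells make from methionine. It is found along many active genes and is also the substrate from which H3K9me2 and H3K9me3, marks of silent chromatin, are made. In keratinocytes the complex is switched on as cells leave the basal layer. Its late cornified envelope (LCE) and small proline-rich (SPRR) proteins, involucrin (IVL) and loricrin are cross-linked into the cornified envelope. The fused-type S100 proteins, among them filaggrin (FLG), hornerin (HRNR), repetin (RPTN) and trichohyalin (TCHH), aggregate keratin or become part of the envelope. The S100A genes encode small calcium-binding proteins, some of them widely made in epithelia. The flanks hold mostly genes of other families.

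The genes of the inner stretches and their neighbours differ in promoter sequence, and 4 promoters are shown for that reason, from the LCE and S100A genes and the genes on either side. In the 250 bases before the start site (RefSeq, GRCh38.p14), 17 LCE promoters held a median of 2 CG dinucleotides (range 1 to 5). The 7 fused-type S100 promoters held a median of 1, and 8 SPRR promoters a median of 0.5. The 14 S100A promoters, a list without S100A10 and S100A11, held a median of 4, with S100A6 at 24 and S100A13 at 15. Among the 20 coding genes before S100A10 in gene order, 17 had a promoter sequence, with a median of 14. Among the 20 after S100A1, 19 had one, with a median of 17. The search was for CG, which reads the same on both strands. Over all 27305 promoters the median was 11, 93.6% held at least 1 and 51.9% held 10 or more. The promoters shown are the first in gene order among those nearest each list's median: LCE3D, a late cornified envelope gene (chr1:152580517-152580766, minus strand), S100A9, a calprotectin subunit (chr1:153357604-153357853, plus strand), ZNF687, a zinc finger gene (chr1:151281272-151281521, plus strand), and GATAD2B, a subunit gene of the NuRD complex (chr1:153922973-153923222, minus strand). These coordinates are of GRCh38.p14, unlike all others here, and were not placed on hg19. Capitals mark CG, 5′ to 3′.
LCE3D: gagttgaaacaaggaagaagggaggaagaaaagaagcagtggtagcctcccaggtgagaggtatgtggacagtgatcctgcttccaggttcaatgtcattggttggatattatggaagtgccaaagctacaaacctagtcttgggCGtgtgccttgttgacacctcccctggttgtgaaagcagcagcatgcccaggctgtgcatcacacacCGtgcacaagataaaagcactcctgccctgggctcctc
S100A9: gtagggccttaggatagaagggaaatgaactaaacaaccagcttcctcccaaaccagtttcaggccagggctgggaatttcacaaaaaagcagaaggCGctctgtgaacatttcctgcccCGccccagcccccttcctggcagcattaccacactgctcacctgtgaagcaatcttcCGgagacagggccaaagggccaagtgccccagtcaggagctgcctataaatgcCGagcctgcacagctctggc
ZNF687: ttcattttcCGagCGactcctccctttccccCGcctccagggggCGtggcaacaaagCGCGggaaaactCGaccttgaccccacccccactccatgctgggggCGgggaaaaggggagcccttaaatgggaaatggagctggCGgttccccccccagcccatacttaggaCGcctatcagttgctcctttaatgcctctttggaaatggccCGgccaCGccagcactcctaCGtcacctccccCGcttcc
GATAD2B: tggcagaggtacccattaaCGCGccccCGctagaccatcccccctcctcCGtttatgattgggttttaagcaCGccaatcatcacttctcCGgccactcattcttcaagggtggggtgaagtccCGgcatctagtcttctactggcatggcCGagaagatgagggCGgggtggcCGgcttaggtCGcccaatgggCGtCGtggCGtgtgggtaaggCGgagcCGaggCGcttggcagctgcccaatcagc

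In control cells, H3K9me1 was less dense over the LCE, FLG and SPRR stretch than over the S100A stretch or either flank. Relative density is the share of a stretch covered by regions divided by the covered share of chromosomes 1, 2, 6, 7, 10, 12, 16 and 17, which all 4 lists include. That covered share was 5.72% in restricted A, 14.8% in restricted B, 12.4% in control A and 15.1% in control B. The library of restricted A thus listed far less than the others, although it was sequenced most deeply (39452512 reads, against 30952210 to 35134998). On the chromosomes named above lay 383762 of the 454516 regions of control B and 330926 of the 661085 of control A. In restricted A and B the numbers were 186609 of 387649 and 394290 of 760945. Some of the remaining chromosomes are missing from the control B list, so its fewer regions there are not a measure of H3K9me1 density. Whole-list totals are therefore not comparable between libraries.

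Over the LCE, FLG and SPRR stretch the relative density was 0.929 in restricted A and 1.29 in restricted B, against 1.22 in control A and 1.11 in control B. The restricted libraries lay on either side of the controls, so the groups overlapped. The means were 1.11 ± 0.254 in restricted and 1.16 ± 0.0769 in control libraries (SD, n = 2 each; log2 difference -0.09, exact two-sided permutation p = 1). Regions covered 5.31% and 19.1% of this stretch in restricted A and B, against 15.1% and 16.8% in control A and B.

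In the S100A stretch both restricted libraries lay below both controls. Its relative density was 1.46 in restricted A and 1.23 in restricted B, against 1.76 in control A and 1.71 in control B. The means were 1.34 ± 0.159 and 1.73 ± 0.0311 (SD, n = 2 each), a ratio of 0.772, restricted over control (log2 difference -0.37). The exact two-sided permutation p was 0.333, the smallest that 2 against 2 libraries allow, so no single value here could pass 0.05. Restricted over control was 0.829 for the A libraries and 0.719 for the B libraries. With regions of a fold enrichment of at least 2, the conditions overlapped, at 1.26 and 2.58 in restricted A and B, against 2.41 and 2.53 in control A and B. The S100A stretch was not alone in this order under every setting. With regions of a −log10 p of at least 1.5, both restricted libraries also lay below both controls in the left flank (1.97 and 1.77 in restricted A and B, against 2.30 and 2.01 in control A and B). The same held in the right flank (1.54 and 1.21, against 1.79 and 2.48). With equal numbers of regions it held in the left flank (2.02 and 1.40, against 2.14 and 2.15). By covered share without a divisor it held in both flanks, at 11.6% and 19.1% against 21.2% and 27.7% in the left, and 14.5% and 15.3% against 18.0% and 28.2% in the right.

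The restricted libraries differed most from each other in the flanks. In the left flank the density was 2.02 in restricted A and 1.29 in restricted B, against 1.71 in control A and 1.83 in control B (log2 difference -0.13, exact permutation p = 1). In the right flank it was 2.53 in restricted A and 1.04 in restricted B, against 1.45 in control A and 1.86 in control B (log2 difference -0.02, exact permutation p = 1). Restricted A was thus the highest and restricted B the lowest of the 4 libraries in each flank.

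**Figure D1:**
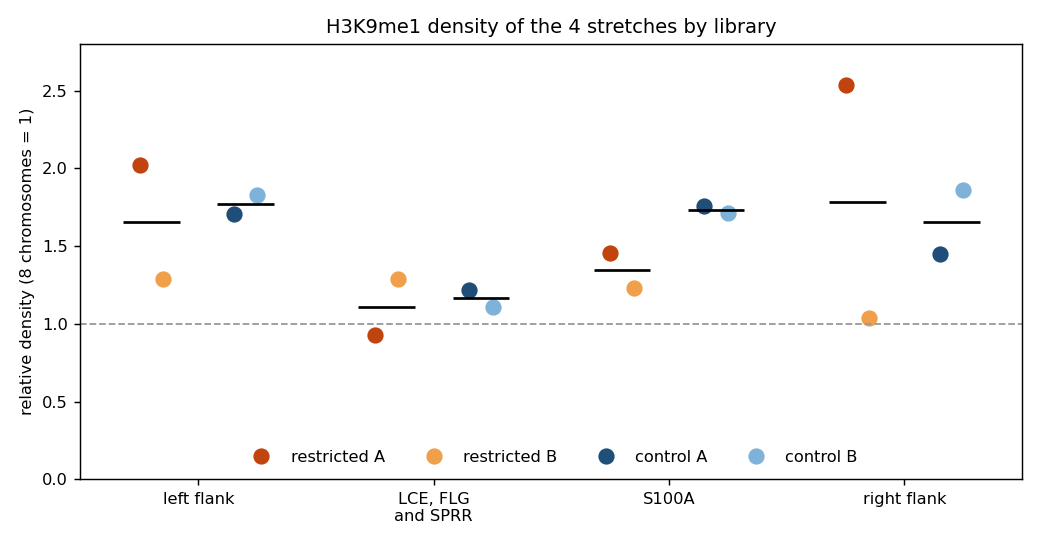
Relative density of H3K9me1 regions (y axis, 1 is the covered share of the 8 chromosomes) in each stretch, 1 point per library, with a bar at the mean of each condition. The restricted points lie below both control points in the S100A stretch (1.46 and 1.23 against 1.76 and 1.71) and on either side of them in the other stretches.

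Ratios between stretches within a library need no divisor. The LCE, FLG and SPRR stretch stood to both flanks together at 0.409 in restricted A and 1.10 in restricted B, against 0.771 in control A and 0.601 in control B. The stretch was thus further below the flanks in restricted A than in either control, and above them in restricted B (log2 difference of the conditions -0.02, exact permutation p = 1). Restricted over control was 0.531 for the A libraries and 1.84 for the B libraries. The S100A stretch stood to the LCE, FLG and SPRR stretch at 1.57 and 0.956 in restricted A and B, against 1.44 and 1.54 in control A and B (exact permutation p = 1). To both flanks it stood at 0.641 and 1.06, against 1.11 and 0.927 (exact permutation p = 0.667). The groups overlapped in each of these ratios. In other settings the S100A ratio to the LCE, FLG and SPRR stretch did not overlap and reached the smallest exact permutation p of 0.333. These were a fold enrichment of at least 2 (log2 difference -0.40), equal numbers of regions (-0.58), regions per Mb (-0.27) and boundaries moved inwards (-0.37). The S100A ratio to the flanks reached it with regions per Mb (log2 difference -0.32). Whether the S100A stretch changed relative to its neighbours thus depended on the setting.

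The regions were short and weak in every stretch. Median width over the whole locus was 368.5 bp in restricted A and 403.5 bp in restricted B, against 397 bp in control A and 423 bp in control B. The median fold enrichment, the pileup over local background as the authors' peak caller gave it, was 1.86 and 1.87 against 2.01 and 1.85. Over the 8 chromosomes the median width was 324 and 377 bp in restricted A and B, against 372 and 386 bp in control A and B. The median fold enrichment there was 1.85 and 1.84, against 1.98 and 1.82. Regions with a −log10 p of at least 2 numbered 6 and 14, against 60 and 19. In the S100A stretch, regions with a −log10 p of at least 1.5 made up 14.8% and 17.4% of those listed in restricted A and B, against 50% and 21.5% in control A and B. In the LCE, FLG and SPRR stretch the same shares were 3.98% and 16.1%, against 25.1% and 21.0%. Within restricted A and control A this share was higher in the S100A stretch than in the LCE, FLG and SPRR stretch. Within restricted B and control B it was nearly the same in both stretches. In both flanks together it was 8.87% and 18.4% in restricted A and B, against 42.3% and 21.7% in control A and B. Control A thus had the highest share of the libraries in the flanks too.

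Gaps without a region were a further measure of the profile. Their shares are given for the locus only and were not divided by the amount each library listed. That amount was lowest in restricted A, and its part in the gap shares was not tested. Gaps of 10 kb or more took up 50.1% of the LCE, FLG and SPRR stretch in restricted A and 9.20% in restricted B, against 13.3% in control A and 9.74% in control B. In the S100A stretch such gaps took up 45.8% and 7.34% in restricted A and B, against 0% in each control. The share of restricted B came from 2 gaps. The longest S100A gaps of the controls were 8.83 kb (control A) and 5.79 kb (control B). In the left flank gaps of 10 kb or more took up 28.8% and 3.48% in restricted A and B, against 4.55% and 1.14% in control A and B. Restricted B thus lay between the controls there. In the right flank such gaps took up 21.2% and 10.0%, against 4.11% and 3.22%. In restricted B the share was thus larger in the right flank than in the LCE, FLG and SPRR stretch. The single longest gap of each library nevertheless lay in the LCE, FLG and SPRR stretch. It was chr1:153146583-153197737 (51.2 kb) in restricted A and chr1:152222471-152245454 (23.0 kb) in restricted B. In control A it was chr1:152261905-152291153 (29.2 kb) and in control B chr1:152570428-152592101 (21.7 kb). The 4 gaps lay at different places, and restricted A, which listed the least, had the longest. The widest regions of the locus also lay in this stretch in each library. They were chr1:152005004-152007517 (2.51 kb) in restricted A and chr1:152941542-152944740 (3.20 kb) in restricted B, against chr1:152513568-152516830 (3.26 kb) in control A and chr1:152952303-152958199 (5.90 kb) in control B.

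Bins of 50 kb resolved the profile inside the stretches. Of 24175 bins tested on the 8 chromosomes, 70 tile the locus, and all 70 passed the filter of a region in at least 2 libraries. The locus was denser in H3K9me1 than the 8 chromosomes as a whole in every library. Its relative density was 1.65 in restricted A and 1.22 in restricted B, against 1.45 in control A and 1.54 in control B. Bins with a relative density of 1.5 or more made up 44.3% and 20% of the locus in restricted A and B, against 44.3% and 57.1% in control A and B. Over all bins tested the same shares were 21.6% and 14.6%, against 25.3% and 25.1%. Bins under 0.5 were rare in the locus, with 4 and 3 in restricted A and B, against 2 in each control, out of 70. Over all bins tested, such bins made up 22.3% and 10.6% in restricted A and B, against 24.3% and 22.8% in control A and B. All but 1 of those in the locus lay in the LCE, FLG and SPRR stretch, the exception being a right flank bin of restricted B.

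**Figure D2:**
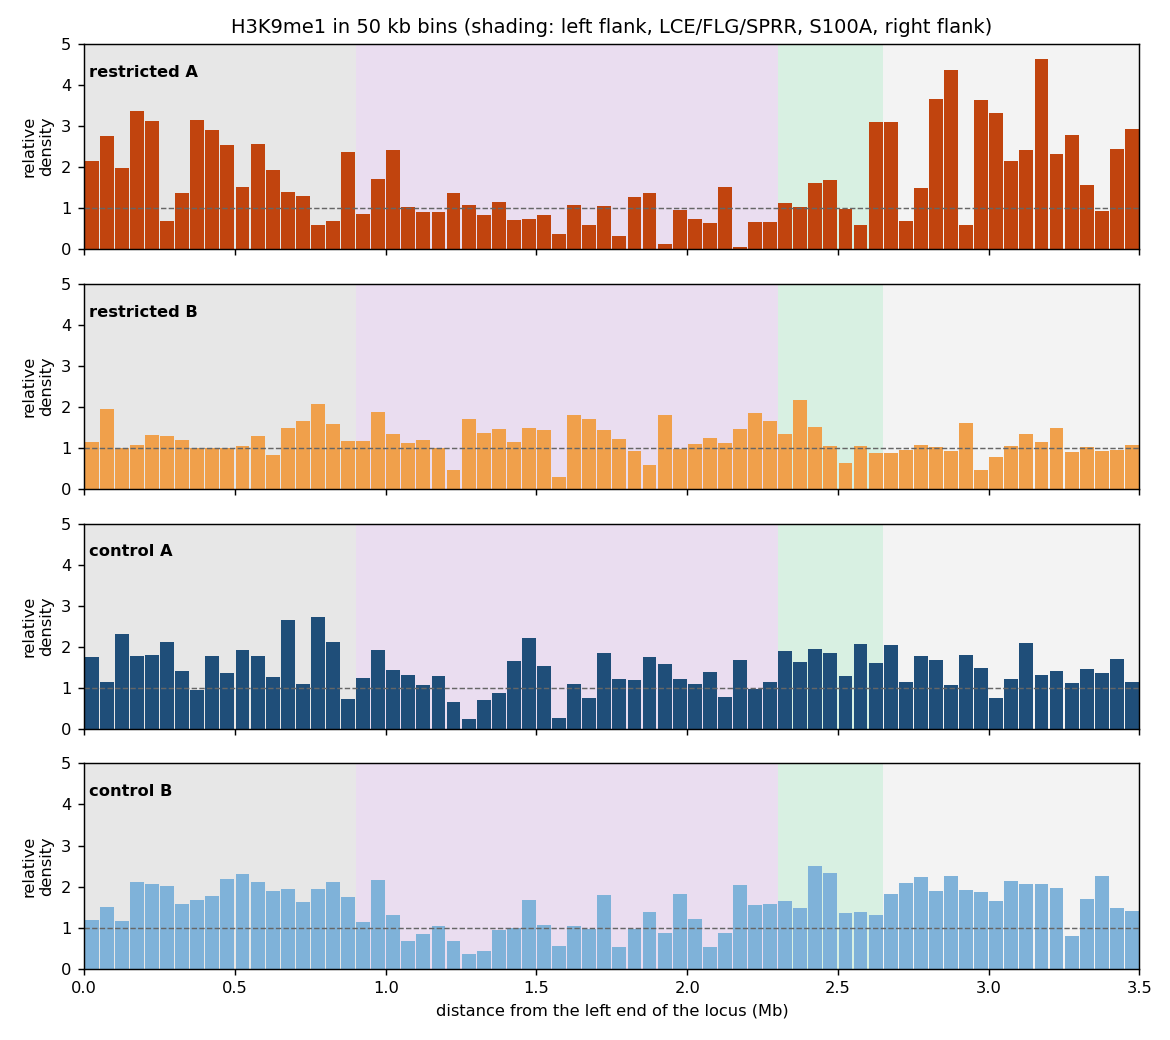
Relative density (y axis) of the 70 bins of 50 kb along the locus (x axis, distance from its left end in Mb), 1 panel per library, with the 4 stretches shaded. Restricted A runs high in both flanks and reaches 4.63 in the right flank, restricted B stays at or below 2.17, and both controls dip to their lowest bin, 0.233 and 0.366, in the same place in the LCE, FLG and SPRR stretch.

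The controls shared a profile across the locus, and the restricted libraries did not share one. Over the 70 bins, Pearson's r of log2 density between libraries was -0.25 for the restricted pair and 0.61 for the control pair. Over all 24175 bins it was 0.45 and 0.88. These are descriptions of bins that share depth, lane and base composition within a library. Across conditions in the locus r ran between 0.08 and 0.35. The SD of log2 density over the 70 bins was 0.976 in restricted A and 0.452 in restricted B, against 0.555 in control A and 0.585 in control B. Restricted A was thus the most uneven library in this locus and restricted B the most even. Over all 24175 bins the SD was 0.965 in restricted A and 0.627 in restricted B, against 1.17 in control A and 1.01 in control B. Restricted B was the most even there too, and restricted A was nearly as uneven there as in the locus. The controls were more even in the locus than over all bins.

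**Figure D3:**
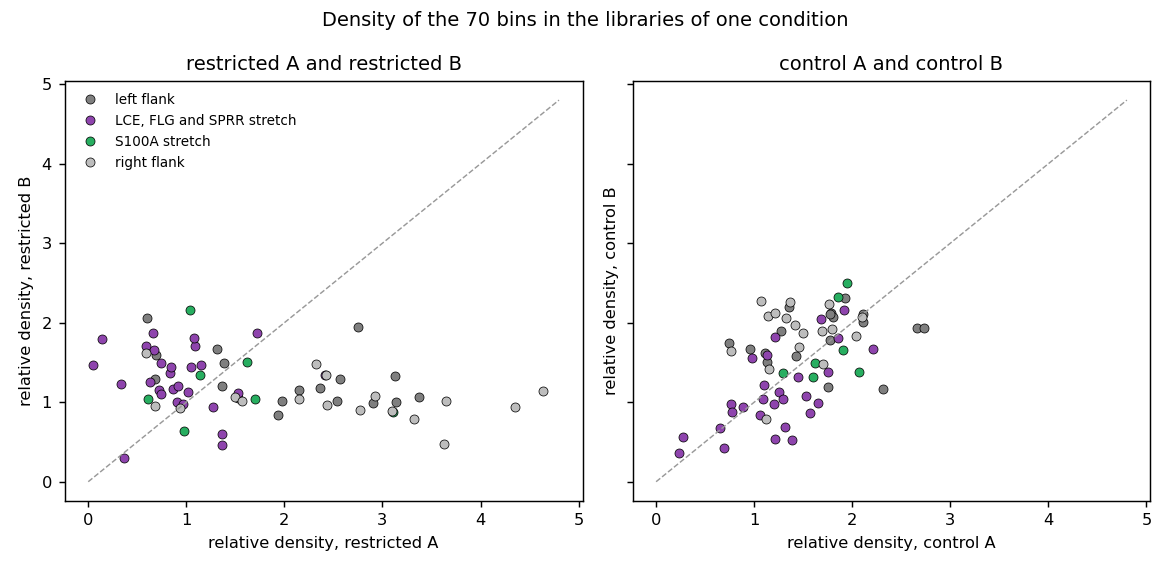
Relative density of the 70 bins in restricted A (x axis) against restricted B (y axis), left, and in control A against control B, right, coloured by stretch, with the line of equality. Flank bins reach 4.63 in restricted A but 2.06 in restricted B, whereas the control libraries follow each other (r = 0.61).

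No bin of the locus passed the test. In limma on log2(relative density + 0.1) with Benjamini-Hochberg adjustment over all bins tested, 0 of 70 bins were called in either direction, beside 0% of all bins, and the smallest adjusted p was 0.231. An unadjusted p under 0.05 was reached by 3 of the 70 bins, beside 15.6% of all bins. In the locus, bins were called only in fits that left out a restricted library, and none in fits that left out a control. Without restricted A, 1 bin of the locus was called higher (beside 0.302% of all bins) and 1 lower (1.93%). Without restricted B, 11 were called higher (7.44%) and 9 lower (11.7%). In those fits the lone restricted library is assumed to vary like the controls.

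More bins of the locus lay lower than higher in the restricted libraries, while over all bins the reverse held. In 21 of 70 bins (30%) both restricted libraries lay below both controls, beside 19.4% of all bins. In 5 of 70 (7.14%) both lay above, beside 29.4% of all bins. The median log2 difference was -0.18 over the locus and 0.10 over all bins tested. The locus also held a larger share of bins rich in H3K9me1 than all bins did, in the controls and in the restricted libraries (above). The part of this in the difference was not tested. By stretch, both restricted libraries lay below both controls in 5 of 18 left flank bins, 7 of 28 bins of the LCE, FLG and SPRR stretch, 5 of 7 S100A bins and 4 of 17 right flank bins. Both lay above in 1, 4, 0 and 0 bins in the same order. The median log2 difference was -0.49 in the 7 S100A bins, from -0.998 to 0.19. Without restricted A, 42 of 70 bins lay below both controls (32.2% of all bins) and 14 above (46.7%). Without restricted B the numbers were 32 (37.2%) and 30 (45.1%). Restricted B alone thus lay below both controls in more bins than above, and restricted A alone in nearly as many above as below.

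**Figure D4:**
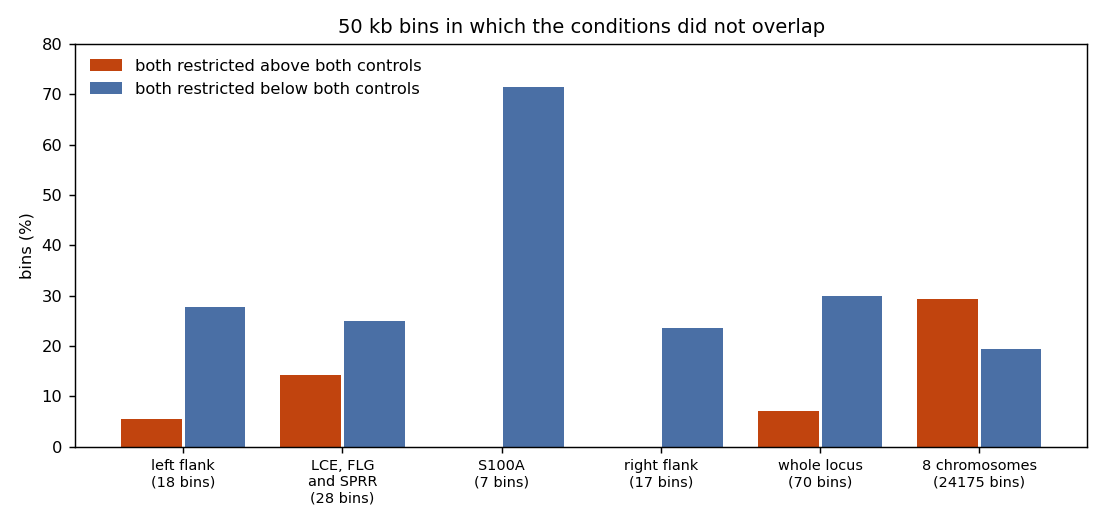
Share of 50 kb bins (y axis, %) in which both restricted libraries lay above, or below, both controls, by stretch, for the whole locus and for all bins of the 8 chromosomes. Lower bins made up 71.4% of the 7 S100A bins and 30% of the locus, beside 19.4% of all bins.

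Among the bins higher in both restricted libraries, 3 were neighbours in the LCE, FLG and SPRR stretch. The bin chr1:152250001-152300000 was the lowest bin of the locus in both controls. Its relative density was 1.09 in restricted A and 1.71 in restricted B, against 0.233 in control A and 0.366 in control B. The groups did not overlap, as the rule for naming bins required (log2 difference 1.90, SE 0.45, limma unadjusted p = 0.00191, adjusted p = 0.231). The bin was called only in the limma fits that left out a restricted library. Its log2 difference was 2.20 without restricted A and 1.59 without restricted B. Both fits rest on the same 2 controls, in which this bin was the lowest, and are not independent support. The bin was not called in limma without control A or without control B (log2 difference 1.65 and 2.14). Over the alternatives that kept all libraries, its adjusted p in limma was 0.172 to 0.999. It held 9 regions (3.10 kb) in restricted A and 21 (12.7 kb) in restricted B, against 3 (1.45 kb) in control A and 8 (2.77 kb) in control B. The longest gap of control A lies within this bin. Inside it, restricted A listed 6 regions (1.96 kb) and restricted B 16 (9.47 kb), against 0 in control A and 5 (2.37 kb) in control B. The regions of the bin were weak, and 1, 1, 0 and 1 reached a −log10 p of 1.5 in restricted A, restricted B, control A and control B. Its neighbour chr1:152300001-152350000 had densities of 0.838 and 1.36 in restricted A and B, against 0.694 and 0.428 in control A and B. The bin chr1:152350001-152400000 had 1.15 and 1.47, against 0.887 and 0.945. Elsewhere, chr1:153100001-153150000 had 1.52 and 1.12, against 0.775 and 0.874, and chr1:151050001-151100000 in the left flank had 2.75 and 1.95, against 1.13 and 1.503. The adjusted p of the bins other than the first in limma was 0.35 to 0.573.

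Bins lower in both restricted libraries were found in all 4 stretches, and 4 consecutive ones lay in the S100A stretch, from chr1:153400001-153450000 to chr1:153550001-153600000. In those 4 bins the log2 difference was -0.47, -0.61, -0.67 and -0.998, in order of position. The largest difference was at chr1:153150001-153200000 in the LCE, FLG and SPRR stretch, with 0.0483 in restricted A and 1.47 in restricted B, against 1.68 in control A and 2.04 in control B (log2 difference -2.02, SE 0.92, limma adjusted p = 0.332). It rests on restricted A, whose longest gap covers most of it, and without that library the log2 difference was -0.31. The S100A bin chr1:153550001-153600000 had 0.604 and 1.04 in restricted A and B, against 2.07 and 1.38 in control A and B (log2 difference -0.998, limma adjusted p = 0.291). In the left flank, chr1:151250001-151300000 had 0.681 and 1.29, against 2.11 and 2.01, and chr1:151800001-151850000 had 0.692 and 1.60, against 2.11 and 2.11. In the right flank, chr1:153700001-153750000 had 0.685 and 0.949, against 1.14 and 2.08. None of these was called with all 4 libraries.

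Few regions were held by every library. Overlapping regions merged into 2360 in the locus, of which 170 (7.20%) were present in all 4 libraries, beside 4.64% on the 8 chromosomes. The share was 3.85% in the LCE, FLG and SPRR stretch, 7.62% in the S100A stretch, 10.4% in the left and 8.83% in the right flank. In the S100A stretch, 5 of 223 merged regions were in both restricted libraries alone and 24 (10.8%) in both controls alone, beside 2.61% and 5.87% on the 8 chromosomes. In the LCE, FLG and SPRR stretch these numbers were 23 (2.53%) and 47 (5.17%) of 909. They were 16 (2.55%) and 35 (5.57%) of 628 in the left flank, and 12 (2%) and 50 (8.33%) of 600 in the right. Restricted A listed less than the other libraries, and the part of this in these counts was not tested. Of the bases listed in the locus, restricted A shared 25.2% of its own with restricted B, which shared 13.2% of its own with restricted A. Control A shared 34.1% of its own with control B, which shared 26.4% of its own with control A. On the 8 chromosomes these shares were 25.9% and 10.0% for the restricted pair, and 28.1% and 23.0% for the control pair. Across conditions in the locus, restricted A shared 32.1% of its own with control B, more than with restricted B, and 23.6% with control A. Restricted B shared 24.9% of its own with control A and 31.1% with control B. Such a share rises with the amount that the other library listed. Regions covered 23.3% of the locus in control B, 18.1% in control A, 18.1% in restricted B and 9.45% in restricted A. The part of this in the shares was not tested.

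The widest merged region of the locus held by all 4 libraries was chr1:153404176-153412582 in the S100A stretch (8.41 kb). It was covered for 0.122 kb in restricted A and 3.86 kb in restricted B, against 5.60 kb in control A and 6.90 kb in control B. The next S100A region, chr1:153610994-153614909, had 1.51 and 2.09 kb, against 1.14 and 1.52 kb, and did not follow the first. In the LCE, FLG and SPRR stretch, chr1:151956251-151960330 had 1.33 and 2.46 kb in restricted A and B, against 0.917 and 3.83 kb in control A and B. The other there, chr1:152746602-152750159, had 0.886 and 0.827 kb, against 1.73 and 1.38 kb. In the left flank chr1:151794000-151798876 had 0.397 and 1.67 kb, against 3.69 and 3.02 kb, and chr1:151684571-151689305 had 0.441 and 0.961 kb, against 2.91 and 2.87 kb. In the right flank chr1:154187268-154192401 had 3.16 and 1.90 kb, against 0.513 and 4.56 kb, and chr1:154076457-154080577 had 0.389 and 1.78 kb, against 1.83 and 4.12 kb. Highest fold enrichments in these regions were 1.77 to 2.53.

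The widest merged regions held by both libraries of 1 condition alone were narrower than those named above. A merged region spans the overlapping regions of every library that holds it, so this difference is not a result about the regions. The widest in both restricted libraries alone were chr1:153963544-153965136 (1.59 kb) and chr1:154442796-154444091 (1.30 kb) in the right flank and chr1:151068231-151069710 (1.48 kb) in the left. The widest in both controls alone were chr1:154358599-154361487 (2.89 kb) and chr1:153748566-153751286 (2.72 kb) in the right flank and chr1:151341351-151343633 (2.28 kb) in the left. None of these 6 lay in the inner stretches.

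Few H3K9me3 peaks were called in the locus in the libraries of that mark from the same conditions. Per the file headers those peaks had q cutoffs and kept duplicate reads, unlike the H3K9me1 regions. Restricted A listed 6 peaks and restricted B 0, against 3 in control A and 2 in control B. The S100A stretch held none in any of the 4 libraries, and the LCE, FLG and SPRR stretch held 1 in each control and none in the restricted libraries. The peak of control A at chr1:152187451-152188590 had a pileup of 55.4 and a fold enrichment of 1.82. The peak of control B was chr1:152120266-152120664. A peak at chr1:154267301-154268813 in restricted A overlapped one of control B in the right flank. With so few peaks no comparison of H3K9me3 between conditions was made.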

How the data were processed

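The deposited peak lists of 4 H3K9me1 and 4 H3K9me3 libraries of HCT116 were used, while the 4 inputs were not analysed here. Groups were taken from sample titles. The submitters' processing notes name hg19 and list Bowtie2 2.1.0, SAMtools 1.5 and MACS2 2.1.1.20160309. Per the file headers, H3K9me1 was called in broad mode for each library, with the matching input (time and letter) as background, a strong p-value cutoff of 0.0001, a weak one of 0.1, and 1 read kept at each position. Fragment length was estimated at 100 to 101 bp, the tag size being 101 bp. The weak cutoff lets regions of low evidence into the lists. Pileup was deposited as a coverage signal. Significance (p, and for H3K9me3 q) was deposited as −log10 values. Fold enrichment was deposited as a ratio. All are averages over a region by the authors' caller. They served only to describe and filter regions within a list. The lists hold no read counts per region, so no counting interval is given. Within H3K9me1 the letter coincided with the sequencing lane, per the file headers.

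Each region was assigned by its midpoint. Covered shares were divided by that of 8 chromosomes (1263 Mb, lengths from the highest region end). Single values were compared by exact permutation over 6 relabellings. Bins of 50 kb were kept where 2 or more libraries had a region and were compared in limma 3.58.1 (R 4.3.3, trend and robust, adjusted p under 0.05) over all bins. In simulated data with the spread of these bins, log2 changes of 1, 2 and 4 were recovered in 0%, 0% and 89.5% of 200 changed bins among 24175, with 0, 0 and 8 false calls. The interval code differed from base-by-base counting in 0 of 300 sets. Members, lists and tests were chosen with earlier results of these data known. Named bins were the 5 per direction with the largest log2 difference among those whose groups did not overlap (mean density of at least 0.25), since fewer than 5 were called. Named regions were the 2 widest common to all libraries per stretch and the 3 widest of each condition alone, with the widest region and the longest gap of each library. Alternatives were other thresholds, measures, divisors, boundaries, pseudocounts, filters, bin sizes, scalings, a replicate block by letter, and omission of single libraries. Counts of bins on each side without each library were added after the data were seen.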

Additional observations from a re-analysis of the deposited data

How the results depend on the processing

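The S100A difference kept its sign under every alternative run, but not its size. The log2 difference was -0.49 to -0.25 when each library was left out, -0.61 with a −log10 p of at least 1.5 and -0.95 without a divisor. The other stretches did not. For the LCE, FLG and SPRR stretch it was 0.084 with equal numbers of regions and -0.32 to 0.15 without single libraries. For the right flank it was 0.043 with chromosome 1 as divisor and -0.66 to 0.63 without single libraries, and for the left flank -0.46 to 0.19. The ratio of the LCE, FLG and SPRR stretch to the flanks was 0.21 (log2 difference) with a −log10 p of at least 1.5, 0.32 with equal numbers and 0.010 with boundaries moved inwards. Without single libraries it was -0.73 to 0.70, and the S100A ratios were -0.64 to 0.072 (to the LCE, FLG and SPRR stretch) and -0.66 to 0.057 (to the flanks). The cause was not tested. Called bins of the locus numbered 0 under every setting that kept all libraries, and 0 to 11 higher and 0 to 9 lower without single libraries. Bins in which every restricted library left lay above every control left then numbered 11 to 30, and bins below 24 to 42. Without control A they were 11 (38.4% of all bins) and 24 (28.3%), and without control B 11 (40.8%) and 28 (28.7%). Of the named bins, those from 151050001, 153100001 and 152350001 turned to -0.82, -0.35 and -1.28 with a −log10 p of at least 1.5. That setting moved the median of all bins from 0.10 to -0.498. The bin from 152350001 also turned to -0.040 without scaling, which moved the median of all bins to -0.40. A replicate block by letter cannot move the mean difference in this balanced design (-0.37 for the S100A stretch). The exact permutation p became 0.5, the smallest that 2 pairs allow, and 0 bins of the locus were called in limma. The letter's A minus B differences correlated at -0.07 between conditions over all bins and at -0.34 over the 70 bins of the locus. The letter was thus not treated as a pairing. The low amount listed in restricted A limits every value of that library.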

Other observations

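The inner boundaries were looked at by the mean relative density of the 150 kb on either side, as values with no test. At 151.9 Mb the density left and right of the boundary was 1.22 and 1.67 in restricted A and 1.61 and 1.46 in restricted B, against 1.86 and 1.54 in control A and 1.93 and 1.54 in control B. At 153.3 Mb, where the S100A stretch begins, it was 0.46 and 1.27 in restricted A and 1.66 and 1.67 in restricted B, against 1.26 and 1.83 in control A and 1.73 and 1.88 in control B. At 153.65 Mb it was 1.56 and 1.76 in restricted A and 0.854 and 0.969 in restricted B, against 1.65 and 1.65 in control A and 1.35 and 2.05 in control B. A step up into the S100A stretch was thus large in restricted A and close to 0 in restricted B.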
